A study of Homo sapiens with 10 samples.

Results

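Tagged EMBOW was mapped on chromatin by precipitation on FLAG beads, and 229 of its 93102 summits on chromosomes 1 to 22 and X (0.246%) lay within 1 kb of the start or end of a protein-coding gene that was not an olfactory receptor gene. These 229 gene-end summits are the members described here. They were chosen by position in the EMBOW-F list, the deposited summits of the FLAG precipitation, against the ends of 19974 protein-coding genes of RefSeq on GRCh38.p14. Together they belonged to 191 genes, which is 0.975% of the 19582 protein-coding genes other than olfactory receptor genes. A further 123 gene-end summits lay nearest to 87 olfactory receptor genes, so members made up 65.1% of the 352 gene-end summits (exact 95% interval 59.8 to 70.0%). The remaining 92750 EMBOW-F summits lay more than 1 kb from any gene end.

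All cells were HEK293T, a line of human embryonic kidney cells that carries SV40 T antigen, and chromatin was released from their nuclei by micrococcal nuclease. The FLAG precipitation came from cells with stable expression of the tagged microprotein EMBOW-FH, and WDR5 was precipitated with its own antibody from EMBOW KO cells and from WT cells. Each of these 3 summit lists stands for 1 library, so no comparison here has a replicate check, no p-value was computed, and intervals cover counting error only. The sources used here give neither the promoter that drives the tag nor whether the KO cells are 1 clone. The lists hold positions and scores without expression or read counts, so neither the cell line nor the knockout could be checked against marker genes, and depth is unknown.

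WDR5 is a WD40-repeat protein that holds together the COMPASS family of complexes, which methylate histone H3 on a lysine linked to active promoters. It also works at the mitotic spindle. EMBOW is a microprotein translated from the transcript of SCRIB, and it binds WDR5 directly. WDR5 in dividing cells is best known at the promoters of housekeeping genes, whereas many genes of the nose, brain, liver, immune system and testis are silent in kidney cell lines.

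At 21 genes, 21 member summits fell in a 300-base promoter window. Each window starts 250 bases before a start listed in the RefSeq promoter table, which can lie inside the gene. The table holds a window for 149 of the 191 member genes, so members at the other genes could not be counted. The windows below, from the RefSeq promoter table on GRCh38.p14, belong to named genes with such a summit. They are shown because they let the letters under a member summit be read at a gene start, with and without WDR5 beside it. All 7 genes lie on the minus strand, each sequence is read 5′ to 3′ along the gene, and capitals mark the summit base with 10 bases on either side where the window holds them. TOP2B and CRISP2 had a WDR5 summit within 500 bp of the EMBOW-F summit, and the others did not.
TOP2B promoter, chr3:25664323-25664622, minus strand: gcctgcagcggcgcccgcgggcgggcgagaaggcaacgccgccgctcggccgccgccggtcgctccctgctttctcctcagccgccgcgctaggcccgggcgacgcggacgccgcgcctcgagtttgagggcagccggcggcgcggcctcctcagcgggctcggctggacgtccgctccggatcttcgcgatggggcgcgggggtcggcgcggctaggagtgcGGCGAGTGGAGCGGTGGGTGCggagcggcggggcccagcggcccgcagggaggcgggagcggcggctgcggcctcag
CRISP2 promoter, chr6:49713494-49713793, minus strand: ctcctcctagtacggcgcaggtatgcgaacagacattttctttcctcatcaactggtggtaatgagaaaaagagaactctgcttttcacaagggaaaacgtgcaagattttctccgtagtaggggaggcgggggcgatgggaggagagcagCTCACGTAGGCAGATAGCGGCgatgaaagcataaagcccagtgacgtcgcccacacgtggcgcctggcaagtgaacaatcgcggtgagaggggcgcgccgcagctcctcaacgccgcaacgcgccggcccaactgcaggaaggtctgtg
MARCHF1 promoter, chr4:164383468-164383767, minus strand: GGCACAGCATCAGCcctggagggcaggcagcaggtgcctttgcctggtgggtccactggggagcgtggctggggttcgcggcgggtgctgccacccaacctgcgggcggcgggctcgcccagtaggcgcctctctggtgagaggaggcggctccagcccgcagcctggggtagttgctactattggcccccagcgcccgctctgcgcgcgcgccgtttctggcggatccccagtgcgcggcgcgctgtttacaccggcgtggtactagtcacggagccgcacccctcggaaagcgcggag
PRB3 promoter, chr12:11269658-11269957, minus strand: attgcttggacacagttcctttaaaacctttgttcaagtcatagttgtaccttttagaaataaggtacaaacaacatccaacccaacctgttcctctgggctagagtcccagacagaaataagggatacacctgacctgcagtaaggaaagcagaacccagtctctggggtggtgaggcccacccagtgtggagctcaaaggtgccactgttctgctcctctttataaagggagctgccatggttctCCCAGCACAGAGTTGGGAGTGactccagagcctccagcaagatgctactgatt
SULT1B1 promoter, chr4:69760571-69760870, minus strand: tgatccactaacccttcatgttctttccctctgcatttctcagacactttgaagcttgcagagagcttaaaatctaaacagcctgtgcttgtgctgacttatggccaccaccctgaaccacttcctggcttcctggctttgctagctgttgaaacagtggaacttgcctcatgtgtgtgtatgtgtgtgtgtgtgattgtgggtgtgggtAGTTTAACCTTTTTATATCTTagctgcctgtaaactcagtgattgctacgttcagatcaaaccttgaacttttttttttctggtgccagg
TMPRSS11F promoter, chr4:68129820-68130119, minus strand: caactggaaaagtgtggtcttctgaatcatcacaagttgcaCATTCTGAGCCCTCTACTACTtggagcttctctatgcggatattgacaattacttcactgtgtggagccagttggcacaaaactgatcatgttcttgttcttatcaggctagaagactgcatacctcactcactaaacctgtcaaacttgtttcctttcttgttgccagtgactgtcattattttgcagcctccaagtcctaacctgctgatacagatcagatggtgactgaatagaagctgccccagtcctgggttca
SLITRK1 promoter, chr13:83882425-83882724, minus strand: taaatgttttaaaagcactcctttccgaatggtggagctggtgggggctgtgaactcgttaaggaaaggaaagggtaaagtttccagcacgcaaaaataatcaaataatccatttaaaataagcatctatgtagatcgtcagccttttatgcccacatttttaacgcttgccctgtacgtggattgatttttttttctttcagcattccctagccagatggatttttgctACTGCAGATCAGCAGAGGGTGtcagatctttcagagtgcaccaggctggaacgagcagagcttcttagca

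The TOP2B window was the richest in CpG dinucleotides of the 7, with 53, and that of CRISP2 held 57.3% G and C and 24 CpG. PRB3, SULT1B1, TMPRSS11F and SLITRK1 held 42.3 to 48.7% G and C and 0 to 7 CpG. MARCHF1 stood with the first pair, at 71.3% and 30 CpG, although it had no WDR5 summit within 500 bp. The word TATAAA, searched on both strands, occurred in PRB3 and SULT1B1 and in 9.75% of the 15813 promoters of the table. Its matches are letters in a window and say nothing of a factor. The summit of MARCHF1 lay 247 bases before the table's start, that of CRISP2 89 bases before it, and that of PRB3 at base 7 after it. The gene table places the ends of MARCHF1, CRISP2 and TOP2B further out than the promoter table, so these 3 summits also lie inside the gene, by 255, 588 and 518 bp.

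Member summits were mostly weak by the authors' own score, the −log10 of the q value of each summit. Their median was 3.25 (lowest 1.40, quartiles 2.26 and 3.86, highest 9.06). The median was also 3.25 at olfactory receptor gene ends and 3.25 away from gene ends, where the score reached 714. A score of 5 or more was held by 22 members (9.61%, interval 6.12 to 14.2%), by 17 olfactory receptor gene-end summits (13.8%, 8.26 to 21.2%) and by 15851 summits away from gene ends (17.1%, 16.8 to 17.3%). The member interval lies below the value away from gene ends and overlaps that of the olfactory receptor genes.

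The scores fell on few steps. The 229 members took 78 distinct values, and 98 of them sat at 1 of the 5 commonest, which were 3.25, 2.70, 3.86, 2.18 and 4.51. The value 3.25 alone was shared by 30 members (13.1%) and by 11.7% of all EMBOW-F summits. A rank among members at such a step therefore carries no order.

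The highest member summit scored 9.06 and lay on chromosome 8 at position 144336655, 173 bp outside SCRT1, a zinc finger repressor of neurons. It was rank 1607 of the EMBOW-F list. Next came MARCHF1 at 7.46, a membrane ubiquitin ligase that removes MHC class II molecules from the surface of antigen-presenting cells, on chromosome 4 at 164383764. CFHR4 followed at 7.44, a complement factor H related protein of plasma, then XIRP2 at 7.38, an actin-binding protein of striated muscle. Also among the highest, the muscarinic receptor gene CHRM2 and the complement gene CFHR5 both scored 6.29. CARD18, CLDN16 (a tight junction protein of the kidney tubule) and EMCN (an endothelial sialomucin) each scored 5.90, and LOC124901415 scored 5.83. These genes serve unlike tissues.

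The members lay on either side of the gene ends. Inside the nearest gene were 123 of 229 (53.7%, 47.0 to 60.3%), against 75 of 123 at olfactory receptor genes (61.0%, 51.8 to 69.6%). Among the 183 members whose nearest gene has a known strand, 98 were at the 5′ end (53.6%, 46.0 to 60.9%), against 49 of 106 (46.2%, 36.5 to 56.2%) at olfactory receptor genes. Both pairs of intervals overlap, and the member interval for 5′ ends contains an even split at this window. The side depends on the window: the 5′ share was 61.0% (50.9 to 70.3%) within 500 bp and 44.4% (39.1 to 49.7%) within 2 kb, and neither interval holds an even split. The median distance to the gene end was 463 bp, and 131 members (57.2%) lay within 500 bp of it. At the edge of the rule, the summits of PCDHGA3, UGT2B15 and ZNF722 lay 988, 995 and 999 bp from the end with scores of 2.70, 3.25 and 3.89. Just outside it, summits near NEK10, FAM170A and ZNF735 lay 1012, 1016 and 1020 bp away and scored 3.25, 3.41 and 5.17.

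**Figure D1:**
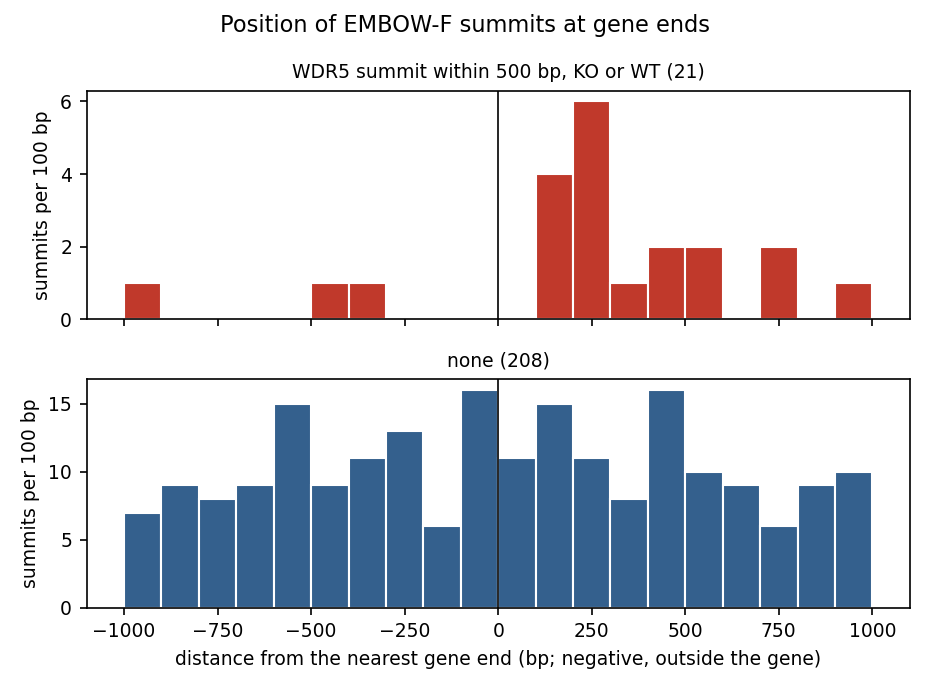
Number of member summits per 100 bp against the signed distance from the nearest gene end in bp (negative, outside the gene), for the 21 members with a WDR5 summit of either genotype within 500 bp (top) and the 208 without (bottom). In the top panel 18 of 21 lie inside the gene, while the bottom panel is spread over both sides.

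A WDR5 summit within 500 bp was present at 21 members, at 20 genes (9.17%, 5.77 to 13.7%), where 0.874% of all EMBOW-F summits had one in either genotype. A KO WDR5 summit was within 500 bp of 16 members (6.99%, 4.05 to 11.1%), against 0.538% of all EMBOW-F summits. A WT WDR5 summit was there for 18 members (7.86%, 4.72 to 12.1%), against 0.493% of all. Among the 22 members with a score of 5 or more these were 1 in KO (4.55%, 0.115 to 22.8%) and 0 in WT (0 to 15.4%). Both intervals hold the share of all EMBOW-F summits and also that of all members, so 22 summits cannot tell these apart. At olfactory receptor gene ends, 2 of 123 summits had a KO WDR5 summit (1.63%, 0.198 to 5.75%) and 0 had a WT one (interval up to 2.95%). The KO intervals of members and olfactory receptor summits overlap, and the WT intervals do not. Members were picked for lying at gene ends, where WDR5 summits are common, so these shares compare places as well as summits.

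A second count, by gene and over both gene ends, stood below its background. Of the 191 member genes, 23 had a KO WDR5 summit within 1 kb of either end (12%, 7.79 to 17.5%), where 53.6% of all protein-coding genes had one. For WT WDR5 it was also 23 member genes (12%), where 50.1% of all genes had one. Of the 87 olfactory receptor genes with an EMBOW-F summit, 1 had a KO WDR5 summit there (1.15%) and 0 had a WT one. A low share is thus not particular to member genes. Of all genes, 57.1% had a summit of either genotype, and 164 member genes (85.9%, 80.1 to 90.5%) had neither, against 42.9% of all genes. The member genes with a KO summit and no WT summit were CHGA, CRISP2, FREM3 and LAMA2. Those with a WT summit and no KO summit were ADH1B, KCTD8, ZNF479 and ZNF595. Seen from WDR5, 17 of 11757 gene-end KO summits (0.145%) and 18 of 10830 gene-end WT summits (0.166%) had a member summit within 500 bp.

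The WDR5 summits beside members had scores in the range usual for gene ends. Their median score was 13.7 in KO (interval of the median 7.53 to 20.1, n = 16 summits) and 16.3 in WT (5.82 to 24.8, n = 18). The medians over all gene-end WDR5 summits were 8.70 in KO and 7.80 in WT, and both lie within those intervals. The median distance between partner and member was 85.5 bp in KO and 56.0 bp in WT. Scores of separate lists depend on each library's depth, so KO and WT scores below are given side by side and not compared.

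Among the accompanied members were 6 of the 10 genes assigned by hand to other transcription and chromatin roles, a group made after the members were known. Counted within 1 kb of a gene end, 6 of the 10 had a KO WDR5 summit and 6 a WT one. Of all genes 53.6% and 50.1% had one, and of member genes 12% in each genotype. The group was made by hand with the members known, so nothing is read from its share. E2F2, an activator of S-phase genes, had its EMBOW-F summit on chromosome 1 at 23531057, 176 bp inside the 5′ end, with a score of 3.86. KO WDR5 scored 121 there at 15 bp and WT WDR5 scored 70.9 at 6 bp, ranks 132 and 155 of their lists. EZH2, the methyltransferase of the Polycomb system, had an EMBOW-F summit of 2.39 on chromosome 7 at 148884121, with WDR5 at 20.1 in KO (487 bp away) and 32.7 in WT (29 bp away). The topoisomerase gene TOP2B scored 3.24, with WDR5 at 12.9 in KO and 16.6 in WT, 34 and 38 bp from the capitals' centre in the TOP2B window above. TASOR2, a relative of the HUSH complex subunit TASOR, scored 3.31, with 27.7 in KO and 24.8 in WT. The RNA-binding protein gene HNRNPDL scored 2.70, with 17.8 in KO and 16.1 in WT. In all 5 genes the EMBOW-F summit lay inside the gene at its 5′ end.

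The other members with WDR5 in both genotypes were at genes of general cell functions, a flagellar gene and a homeobox gene. FEM1C, a substrate receptor of a cullin ubiquitin ligase, scored 3.86 for EMBOW-F, with WDR5 at 17.1 in KO and 6.40 in WT. LIPT2, a mitochondrial lipoic acid enzyme, scored 3.25, with 11.4 in KO and 16.5 in WT, the WT summit 1 bp away. SLAIN1, a microtubule plus-end protein, scored 3.25, with 14.8 in KO and 37.7 in WT. TULP4, a tubby-like protein, scored 2.70 and lay 341 bp outside the gene, with 35.6 in KO and 39.5 in WT. MTMR1, a myotubularin-related phosphatase, scored 3.57, with 14.4 in KO and 5.82 in WT. H6PD, which makes NADPH in the endoplasmic reticulum, scored 1.48, with 7.71 in KO and 11.3 in WT. The sperm flagellar gene SPEF2 scored 3.25, with 10.7 in KO and 2.25 in WT, and the homeobox gene HDX scored 4.13, with 7.53 in KO and 5.02 in WT. All of these except TULP4 lay inside the gene.

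WDR5 was within 500 bp in KO and not in WT at 3 members. CRISP2, a secretory protein of sperm, had the highest EMBOW-F score of all accompanied members, 5.64 on chromosome 6 at 49713632. Its KO WDR5 summit scored 3.61 at 215 bp, a low value that held rank 15522 of the KO list, and the nearest WT summit lay 30101 bp away. CHGA, the granule protein chromogranin A, scored 3.72, with a KO WDR5 summit of 4.74 at 48 bp and the nearest WT summit 41199 bp away. TWIST1, a mesodermal transcription factor, scored 3.25, with a KO summit of 5.22 at 1 bp and a WT summit of 4.59 at 546 bp. For TWIST1 the difference between genotypes is therefore a matter of the 500 bp limit.

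WDR5 was within 500 bp in WT and not in KO at 5 members of 4 genes. EPM2A, the glycogen phosphatase laforin, had a KO summit of 19.8 at 607 bp and a WT summit of 16.5 at 345 bp. USP24, a deubiquitinase, had a KO summit of 33.8 at 622 bp and a WT summit of 18.9 at 66 bp. At both genes the KO summit is present, a little past the limit. The zinc finger gene ZNF595 had a member at each side of its 5′ end, with no KO summit nearer than 7625 bp and WT summits of 7.82 at 34 bp and 3.78 at 37 bp. ZNF479 had its nearest KO summit 751292 bp away and a WT summit of 3.44 at 54 bp. ZNF479 and ZNF595 belong to families of related zinc finger genes. The sources used here do not say, for either genotype, how reads that match several places were handled.

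**Figure D2:**
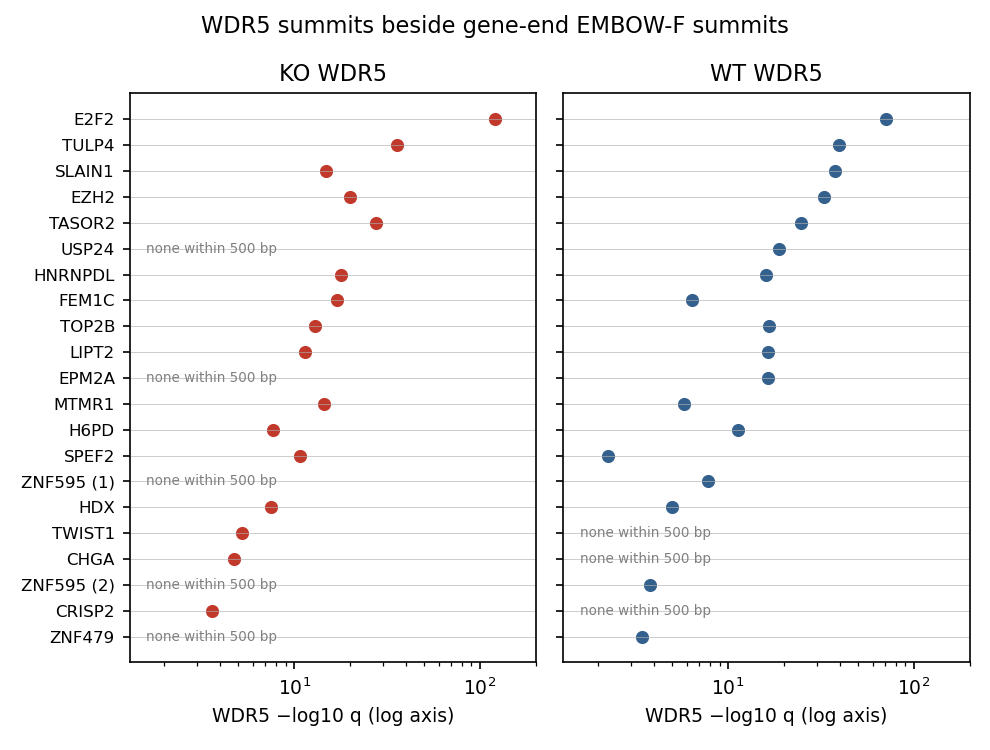
Score (−log10 q, log axis) of the nearest WDR5 summit within 500 bp of each of the 21 accompanied members, by gene, in KO (left) and WT (right); grey text marks lists with none. E2F2 is highest in both, at 121 in KO and 70.9 in WT, and 13 of the 21 members have a point in both panels.

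The accompanied members differed from the other members in where they lay. Inside the gene were 18 of 21 (85.7%, 63.7 to 97.0%), against 105 of 208 (50.5%, 43.5 to 57.5%). At the 5′ end were 16 of 17 with a known strand (94.1%, 71.3 to 99.9%), against 82 of 166 (49.4%, 41.6 to 57.3%). Neither pair of intervals overlaps. The accompanied members were chosen for a WDR5 summit beside them, and the usual position of gene-end WDR5 summits was not counted. These shares may therefore restate where WDR5 lies, and nothing particular to EMBOW-F is read from them. The median EMBOW-F score was 3.25 in both sets, and 1 of 21 accompanied members scored 5 or more (4.76%), against 21 of 208 (10.1%). Promoter windows were found for 16 of the 20 accompanied genes, and their median content was 60.5% G and C and 24 CpG. Over all promoters of the table the medians were 62.7% and 22 CpG, and at 74 olfactory receptor genes with a summit they were 35.5% and 1 CpG. The table's promoters cover 82.1% of the genes off chromosome 8 but 79.2% of all genes, which is under the 80% limit given below. TATAAA occurred in 0 of the 16 windows, in 29.7% of the olfactory receptor windows and in 9.75% of all windows. CCAAT, on either strand, occurred in 9 of 16 (56.2%), against 39.2% of the olfactory receptor windows and 36.4% of all windows. With 16 windows, nothing is read from either count. Windows were found for 149 of all 191 member genes (78.0%), under the 80% set for such a check, so no composition is given for them.

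Most members lay among many other EMBOW-F summits, and most accompanied members did not. A member had a median of 26 other EMBOW-F summits within 100 kb (0 to 132), against 39 for olfactory receptor gene-end summits and 39 away from gene ends. No other EMBOW-F summit lay within 100 kb of 20 members (8.73%, 5.42 to 13.2%), of 0 of 123 olfactory receptor gene-end summits and of 0.722% of those away from gene ends. Among accompanied members 13 of 21 were isolated in this sense (61.9%, 38.4 to 81.9%), and among the others 7 of 208 (3.37%, 1.36 to 6.81%). The measure of isolation was chosen after these values were seen.

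Turned round, 13 of the 20 isolated members had a WDR5 summit within 500 bp (65.0%, 40.8 to 84.6%). The share was 1 of 26 (3.85%) with 1 to 9 other EMBOW-F summits within 100 kb and 7 of 183 (3.83%, 1.55 to 7.72%) with 10 or more. Isolated summits away from gene ends had WDR5 in 18 of 670 cases (2.69%). By gene, 13 of 20 isolated member genes had a WDR5 gene-end summit of either genotype (65.0%), with an interval of 40.8 to 84.6% that holds the 57.1% of all genes. Of the other member genes 14 of 171 did (8.19%, 4.55 to 13.4%), which is far under it. The intervals of isolated and other member genes do not overlap. Isolation was chosen after the values were seen, so this is a description and not separate support. Isolated members without WDR5 were at SCRT1, ARID5B, CLDN16, KRTAP8-1, SERPINB3, ZNF426 and ZNF80. At SCRT1 the nearest KO WDR5 summit was 1292 bp away and the nearest WT summit 9482 bp, and at ARID5B they were 1989 bp and 2007 bp away.

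**Figure D3:**
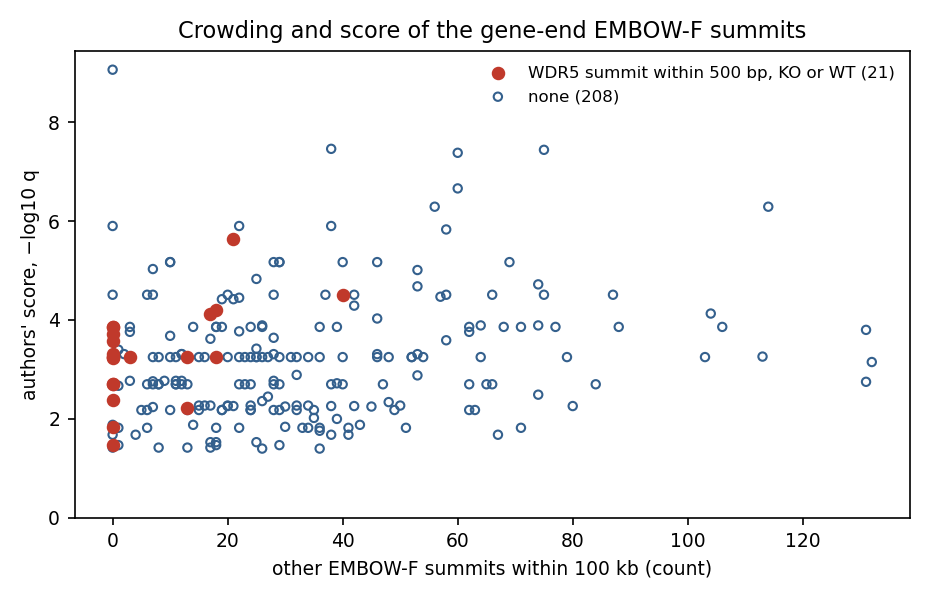
Authors' EMBOW-F score (−log10 q) of each of the 229 members against the number of other EMBOW-F summits within 100 kb; filled points have a WDR5 summit of KO or WT within 500 bp. Of the 21 filled points 13 sit at 0 on the horizontal axis, and the highest point, 9.06 at SCRT1, is open and also at 0.

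Ion channels, neurotransmitter receptors and synaptic proteins formed the largest of the role groups, with 36 members at 25 genes. These roles were assigned by hand after the members were known, so their counts are a description. Over all members 9.17% had WDR5 within 500 bp. A count of 0 in this role group or in those below is therefore not read as a difference from the other members. CHRM2, given above, had 114 other EMBOW-F summits within 100 kb of its 6.29 summit. GABRA6, a subunit of the GABA-A receptor on chromosome 5, had 2 members, with scores of 4.72 and 1.82. TACR3, the neurokinin B receptor, had 5.01 and 3.25 at its 5′ end. SLITRK1, a neuronal adhesion protein on chromosome 13, had 3 members, at 3.80, 3.15 and 2.75, amid 131 or 132 other EMBOW-F summits, the densest surroundings of any member. None of the 36 had a WDR5 summit within 500 bp in KO or WT, and KCTD8 was the single gene of the 25 with one within 1 kb of an end, in WT.

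Immune and inflammation genes came next, with 31 members at 25 genes and 0 with WDR5 in either genotype, beside 9.17% of all members. The complement factor H family had members at 3 of its 6 genes (interval 11.8 to 88.2%, against the 0.975% of all non-olfactory genes), CFHR4 (7.44 and 4.51), CFHR5 (6.29) and CFHR2 (3.25). These 3 genes lie in 1 cluster and are not independent. The inflammatory caspase genes CASP5 and CASP4 scored 5.17 and 2.18, and the neighbouring CARD18 and CARD16 scored 5.90 and up to 3.25. CD1E and CD1B, which encode CD1 proteins related to lipid antigen presentation, had 3 and 2 members with scores between 1.68 and 4.29. MS4A6E, of the family of membrane proteins that includes CD20, scored 5.17. TLR4, the receptor for bacterial endotoxin, scored 3.86.

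Zinc finger genes with a ZNF symbol had 23 members at 16 of 510 genes (3.14%, 1.80 to 5.04%), with the highest scores, 5.17, at ZNF804A and ZNF679. The share over all genes other than olfactory receptors is the 0.975% given above, and members of 1 cluster are not independent. Within 500 bp of WDR5 were 0 of the 23 in KO and 3 in WT, those at ZNF595 and ZNF479. ZNF595 and ZNF722 had 3 members each, ZNF722 with 4.51, 3.89 and 2.70 amid 66 to 74 other EMBOW-F summits. The 10 genes of other transcription and chromatin roles had 11 members, of which 6 had a KO WDR5 summit within 500 bp and 5 a WT one. Of the 69 members at genes with no role assigned, 8 had a KO WDR5 summit within 500 bp and 9 a WT one. As said above, nothing is read from the share of the 10 transcription and chromatin genes, a group made by hand.

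Testis and germline genes had 18 members at 16 genes. CRISP2 and its neighbour CRISP1 scored 5.64 and 5.17, and FAM170A, CABS1 and RBM46 scored 4.83, 4.51 and 4.51 at their highest. With KO WDR5 within 500 bp were CRISP2 and SPEF2, and with WT WDR5 SPEF2. Digestive, glandular and skin genes had 17 members at 14 genes and 0 with WDR5, beside 9.17% of all members. Among them PRB3, a salivary proline-rich protein, scored 5.03, PIP, a protein of saliva and other secretions, had 3 members at 4.68, 3.25 and 2.88, and AMY2A, pancreatic amylase, had 4.45 and 3.77. AMY2A has near-identical gene copies beside it, so the placing of its reads is uncertain.

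Detoxification and liver genes had 11 members at 10 genes, 0 of them with WDR5 within 500 bp, beside 9.17% of all members. In so small a group nothing is read from that count. SLCO1B3, a bile acid and drug transporter of hepatocytes, scored 4.51. SULT1B1 and SULT1E1 were 2 of 13 sulfotransferase genes, at 3.25 and 2.70, and UGT2B15 and UGT2B17 were 2 of 22 UDP-glucuronosyltransferases, at up to 3.25 and 2.18. ADH1B, an alcohol dehydrogenase, scored 2.27 and had a WT WDR5 summit 1334 bp from the member. These gene families hold close copies, and the share of reads placed uniquely is unknown.

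Smaller groups were 3 of 25 bitter taste receptor genes (interval 2.55 to 31.2%), 6 of 65 protocadherin genes (3.46 to 19.0%) and 3 hormone or lipid mediator receptors, beside the 0.975% of all non-olfactory genes. The family genes lie in clusters and are not independent. The taste receptors TAS2R60, TAS2R39 and TAS2R38 scored 2.18 to 2.67, and the protocadherins 1.53 to 3.86. Of the receptors FSHR and PTGER3 scored 4.51 and PTGFR 1.82. None of these had WDR5 within 500 bp, beside 9.17% of all members. In 28 of the 50 symbol families examined no gene had a member, and 63 member genes had no role assigned, 12 of them uncharacterised LOC genes.

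Members also sat close to each other, if less so than summits at olfactory receptor genes. Another member lay within 100 kb of 99 of the 229 (43.2%, 36.7 to 49.9%), against 112 of 123 with another olfactory receptor gene-end summit in that range (91.1%, 84.6 to 95.5%). The 99 fell into 38 clusters, of which 22 held a single gene. Of the 191 genes, 158 had 1 member, 28 had 2 and 5 had 3 (CD1E, SLITRK1, ZNF595, ZNF722 and PIP). An olfactory receptor gene-end summit lay within 100 kb of 12 members.

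Clusters join members at most 100 kb apart, so the genes of the 6 clusters of 4 or more members are neighbours by that rule. The cluster with the most members was at the start of chromosome 4, from 52384 to 199209, with 7 members at ZNF595, ZNF718 and 3 LOC genes, 28 EMBOW-F summits in all and 2 WDR5 summits in KO and 2 in WT. The inflammatory caspase cluster on chromosome 11, from 104942568 to 105138171, held 5 members among 40 EMBOW-F summits and 0 WDR5 summits in either genotype. The CD1 cluster on chromosome 1, from 158285398 to 158358368, held 5 members among 18 EMBOW-F summits and 0 WDR5 summits. PIP and TAS2R39 on chromosome 7 shared 5 members among 20 EMBOW-F summits, with 0 KO and 1 WT WDR5 summits. The complement cluster on chromosome 1, from 196917978 to 197010459, held 4 members among 41 EMBOW-F summits, with 0 KO and 1 WT. The protocadherin alpha cluster on chromosome 5 held 4 members among 8 EMBOW-F summits, with 0 KO and 1 WT. Protocadherin alpha genes share their last exons, so 1 far gene end serves several of them, and these 4 members lay inside the genes near the ends that are not shared.

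**Figure D4:**
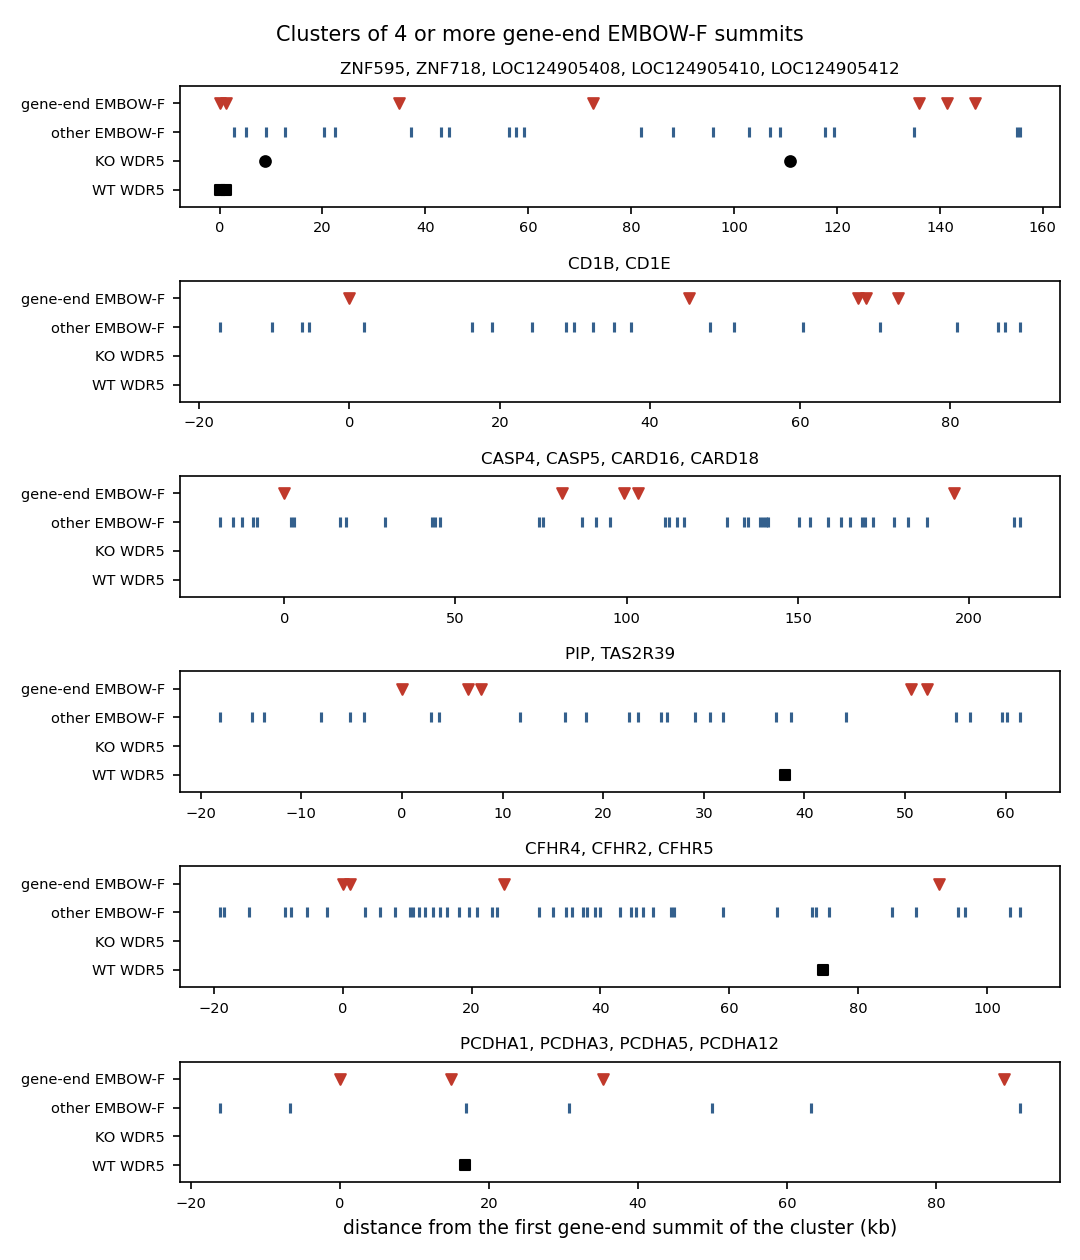
Positions of member summits (triangles), other EMBOW-F summits (ticks) and WDR5 summits of KO (circles) and WT (squares) in the 6 clusters of 4 or more members, by distance in kb from the first member of each. EMBOW-F summits run through each cluster, and the CASP and CD1 clusters have no WDR5 mark.

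Member genes varied widely in length and were remote. Their median length was 39024 bp (interval of the median 26022 to 60451, quartiles 6482 and 162390). It was 1037 bp for the olfactory receptor genes with a summit and 24170 bp for all protein-coding genes (quartiles 8596 and 65225). The first quartile of member genes was thus below that of all genes, and the third was above. The median gap to the next protein-coding gene was 34996 bp at member genes, against 14364 bp at olfactory receptor genes and 3416 bp over all genes. The next gene was more than 100 kb away for 54 member genes (28.3%, 22 to 35.2%), against 3.45% of the olfactory receptor genes and 5.35% of all genes. The lengths ran from 578 bp at KRTAP8-1 to 2298757 bp at PTPRD.

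Chromosomes 7, 1 and 4 held the most members, 33, 31 and 31. Chromosome 7 had 14.4% of members, against 7.39% of all EMBOW-F summits and 4.70% of genes, and chromosome 4 had 13.5%, against 7.86% and 3.86%. Chromosome 13 had 4 members (1.75%), against 7.28% of EMBOW-F summits and 1.69% of genes. Chromosome 19, which is dense in genes, had 6 members (2.62%), against 0.242% of EMBOW-F summits and 7.26% of genes. No member lay on chromosomes 15, 16, 17, 20 and 22, each of which held at most 422 EMBOW-F summits.

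**Figure D5:**
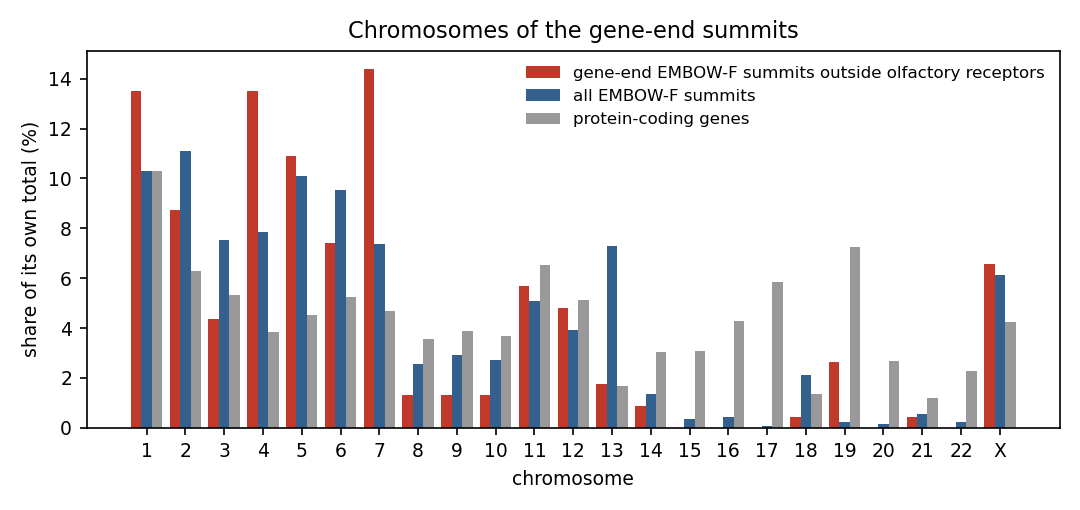
Share (%) of member summits, of all EMBOW-F summits and of protein-coding genes on each chromosome, each as a percentage of its own total. Members exceed both other bars on chromosomes 1, 4, 5, 7 and X, and chromosomes 15, 16, 17, 20 and 22 have none.

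The authors' deposited list of transcripts, named as new WDR5 targets dependent on EMBOW, gave no excess among member genes. The 5′ end of a listed transcript lay within 1 kb of an end of 12 of the 191 member genes (6.28%, 3.29 to 10.7%), where 10.3% of all protein-coding genes had one, a value inside that interval. At olfactory receptor genes with a summit it was 3 of 87 (3.45%). The 12 genes were ADGRL4, CHGA, CRISP2, CTNNA2, EPM2A, IQCM, KCNH8, LAMA2, PID1, SLC4A10, SLCO1B3 and ZNF718. Of these, CHGA, CRISP2 and EPM2A also had WDR5 within 500 bp of the member, in KO at CHGA and CRISP2 and in WT at EPM2A. The list was chosen by the authors on these samples, so it is not independent evidence on the WDR5 summits.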

How the data were processed

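The authors deposited 3 lists of 1-bp peak summits, each with a score that was read as the −log10 of the q value because its lowest value lies at that of a q of 0.05. The submitters' processing notes name MACS2 2.2.7.1, Bowtie2 2.4.5 and deepTools 3.5.1 and the build hg38, without a role. What input and settings were used, how reads that match several places were handled and whether libraries were pooled: none of this is given in the sources used here. The KO and WT WDR5 lists belong to their samples. EMBOW-F is a series-level list, matched to the FLAG precipitation as the single tagged-EMBOW library in the labels. The authors also deposited a list of transcripts, named as new WDR5 targets that depend on EMBOW, of which only positions and strands were used (1 truncated chromosome name was repaired). Libraries for H3K4me3 and the inputs were not analysed here. The series has 10 samples, each the 1 library of its group.

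Distances ran from each summit to the nearest end of a protein-coding RefSeq gene (GRCh38.p14). Strand came from the promoter table or the authors' transcripts and was known for 151 of 191 member genes. Summits at most 500 bp apart counted as partners, and clusters joined members at most 100 kb apart. Shares carry exact (Clopper-Pearson) 95% intervals. No depth is known, and the number of summits limits the precision. Members, gene lists and rules were chosen with earlier results of these data known.

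The genes named by rule were those of the 15 highest members, the 10 accompanied by the highest WDR5 scores, those with 3 or more members, the highest of each family and large cluster, and those at the edge of the 1 kb rule. Some genes named by this rule are not reported here. Other genes, and the roles, were chosen after their values were seen. Distance and partner steps were checked on 200 simulated gene-end summits, with 0 mismatches. All were planted inside the 1 kb limit, so finding them was fixed in advance, and the olfactory receptor rule was not checked. Computation used scipy 1.17.1, pandas 2.3.3 and numpy 2.4.6 under Python 3.11.15, and plots were drawn with matplotlib 3.10.9. No sequence from chromosome 8 was used.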

Additional observations from a re-analysis of the deposited data

How the results depend on the processing

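Of 39 alternatives over 9 results, 28 left the value within its interval or within 1.5 times the count, and 11 moved it. The number of members was 131 with a window of 500 bp, 448 with 2 kb and 22 at a score of 5 or more. The share with WT WDR5 was 0% at a score of 5 or more (0 of 22) and 4.24% with the 2 kb window. Clustered members were 29.7% at 20 kb, 58.5% at 500 kb and 9.09% at a score of 5 or more, where 40.9% lay inside genes. The 5′ share was 61.0% with the 500 bp window and 44.4% with 2 kb, on opposite sides of an even split. Isolated members with WDR5 were 60.9% at a radius of 50 kb and 70.6% at 200 kb, alternatives chosen after seeing the data. The planned promoter composition of member genes was not run, because too few have a window. No paired analysis was possible because each group is 1 library and no result comes from a test. The cause of each move was not tested beyond the smaller or larger number of summits that each window or score leaves.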
